A study of Oryza sativa with 12 samples.

Results

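Rice seedlings chilled before dawn were compared with seedlings kept warm until the same hour. The plants were wild-type rice (WT in the sample titles) of cultivar 93-11 (Oryza sativa ssp. indica). They were at the 3-leaf stage, with a recorded seedling age of 10 days, and were raised at 28 °C with 12 h light and 12 h dark. CT24 seedlings spent 4 h at 13 °C, from zeitgeber time (ZT, hours after lights-on) 20 to 24, and NT24 seedlings stayed at 28 °C over the same hours. Both groups were harvested at ZT24, the end of the dark phase, on day 11. Each group had 3 libraries, each from the above-ground parts of 5 plants, so the comparison used 6 of the 12 libraries of the series. It covered 24700 of the 40424 identifiers in the count table, those that passed a filter on low counts. NT12 and CT12 are the matching warm and chilled groups harvested at ZT12 after treatment from ZT8, and they serve below as a second set of libraries under the same 4 h at 13 °C.

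Rice comes from warm climates, and temperatures well above freezing already injure its seedlings. In plants, cooling is known to raise calcium in the cytosol and to induce DREB1/CBF transcription factors, which switch on genes for osmolytes, dehydrins and membrane lipids. Many cold-induced genes are also under the circadian clock, a loop of morning, daytime and evening repressors, so the hour of cooling sets the level from which a gene starts. None of these roles can be assigned here: the file gives identifiers without names, and 0 of the 40424 matched the 39387 genes of the reference table. The lists of clock, cold, dehydrin, heat shock, photosynthesis and starch genes therefore had no matched member. Whether leaf markers were present could not be read either.

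The 6 libraries separated by temperature. Total counts were 44258103 to 48911223 in NT24 and 47437846 to 52762123 in CT24, so depth overlapped between the groups. The first principal component of log2 CPM (CPM being counts scaled to a common library size) held 62.7% of the variance, with NT24 libraries between -112 and -72.1 and CT24 libraries between 85.7 and 99.9. Across genes, which are not independent, Pearson's r was 0.952 to 0.973 within NT24, 0.968 to 0.974 within CT24 and 0.884 to 0.917 between them. NT24 replicate 1 lay apart from the other NT24 libraries on the second component, at 83.2 against -18.3 and -47.5, and no label explains it. The median gene had a replicate SD of 0.22 log2 units in NT24 and 0.23 in CT24.

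Chilling before dawn changed 10398 of the 24700 genes tested, or 42.1% (adjusted p below 0.05 in edgeR's quasi-likelihood test, by Benjamini-Hochberg). Rises made up 5419 (21.9%) and falls 4979 (20.2%). Upper-quartile scaling, which shifts the median of all genes by -0.12 log2 units, turned this to 4616 rises and 5964 falls. In 10220 of the called genes, or 98.3%, all 3 libraries of one group lay above all 3 of the other; over all genes tested, 28.8% had every CT24 library above NT24 and 28.1% every CT24 library below. Called genes moved by a median of 1.09 log2 units in either direction. Rises of at least 1.5-fold were found for 4436 called genes (18%), of at least 2-fold for 2839 (11.5%), of at least 4-fold for 1025 (4.15%), of at least 8-fold for 436 (1.77%) and of at least 16-fold for 216 (0.874%). Falls of those sizes were found for 4201 (17%), 2865 (11.6%), 980 (3.97%), 348 (1.41%) and 147 (0.595%). The quartiles of the log2 change over all tested genes were -0.64 and 0.60. In whole shoots, more cells of a type and more RNA per cell cannot be told apart, and CPM gives each transcript relative to all others.

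**Figure D1:**
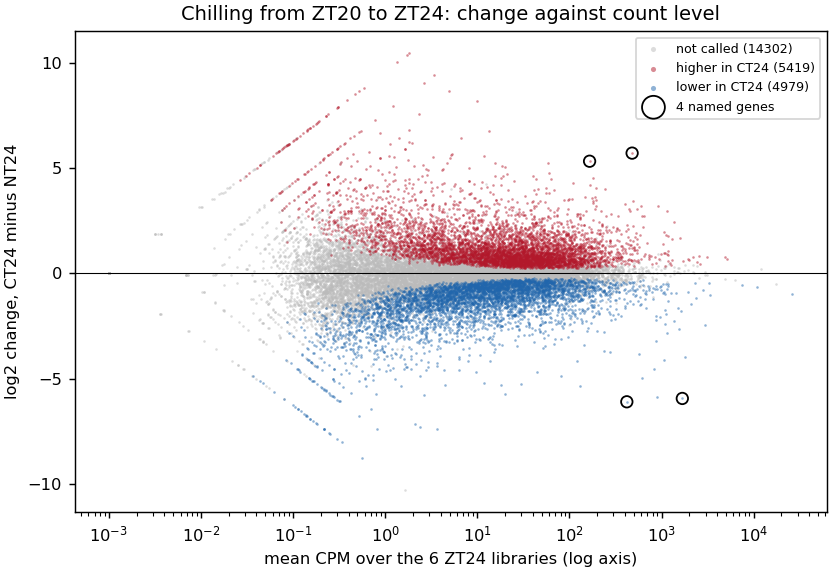
Log2 change (CT24 minus NT24, fitted by edgeR) of each of the 24700 genes against its mean CPM over the 6 ZT24 libraries, on a log axis. Red points are the 5419 genes called higher, blue points the 4979 called lower, grey points genes not called, and circles the 4 named genes. Lines of points at low CPM are genes with a few counts, whose fitted change depends on the prior count that edgeR sets by default.

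Named identifiers were those with the largest called change among genes averaging at least 100 CPM over the 6 libraries, 2 in each direction. Genes with that average are called highly counted here. Tests of the difference from ZT12 reuse the ZT24 libraries that chose the named identifiers. Counts also grow with transcript length, and no lengths were in the file, so these levels do not rank genes by the number of transcripts.

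The largest rise among highly counted genes was that of OsR498G0204611500.01. Its level was 21.5, 18.02 and 14.4 CPM in the NT24 libraries and 812, 994 and 1015 CPM in the CT24 libraries. It rose 52.3-fold (log2 5.71, SE 0.26, adjusted p by edgeR 1.48e-07), and no chilled library came near a warm one. At ZT12 the same gene went from 57.5 ± 14.1 to 2087 ± 367 CPM (SD, n = 3). Its log2 changes at ZT24 and ZT12 differed by 0.53 (SE 0.31), which did not pass the test (edgeR adjusted p = 0.256).

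OsR498G0917660200.01 came next. It stood at 8.67, 8.33 and 7.18 CPM in NT24 and at 293, 312 and 364 CPM in CT24. The 3 warm libraries were nearly alike and lay far below every chilled one. The rise was 40.03-fold (log2 5.32, SE 0.20, adjusted p by edgeR 5.3e-08). At ZT12 it rose from 93.7 ± 19.1 to 1789 ± 206 CPM (SD, n = 3). In log2 terms the rise was larger at ZT24 by 1.07 (SE 0.24, edgeR adjusted p = 0.008), although the level reached in CT24 was lower than in CT12. Both identifiers next to it in number, among those tested, were also called higher in CT24. The one before had no count in NT24 and 1.03, 0.881 and 1.58 CPM in CT24. The one after had 0, 0.0655 and 0.0221 CPM in NT24 and 0.0810, 0.198 and 0.457 CPM in CT24 (edgeR adjusted p = 0.0311). Of all genes, 21.9% were called higher and 20.2% lower. Each of the other named genes had 1 such neighbour called in its own direction and 1 not called. For those not called, edgeR adjusted p was 0.355 for OsR498G0204611500.01, 0.0682 for OsR498G0101476300.01 and 0.821 for OsR498G0306485300.01. For those called it was 0.000193, 0.0391 and 0.0296 in the same order. The called neighbours of OsR498G0101476300.01 and OsR498G0306485300.01, both lower in CT24, had at most 1.44 CPM in any ZT24 library.

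OsR498G0101476300.01 had the largest fall among highly counted genes. Its level was 948, 620 and 914 CPM in NT24 and 15.8, 12.3 and 7.89 CPM in CT24. That drop was 68.9-fold (log2 -6.11, SE 0.32, adjusted p by edgeR 2.7e-07). Chilling before dusk moved this gene the other way, from 340 ± 65.9 CPM in NT12 to 6053 ± 602 CPM in CT12 (SD, n = 3). The responses differed by -10.26 log2 units (SE 0.43, edgeR adjusted p = 8.12e-08).

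The other named fall, OsR498G0306485300.01, involved more counts. It stood at 4098, 2761 and 3061 CPM in NT24 and at 55.8, 56.9 and 48.1 CPM in CT24, and fell 61.7-fold (log2 -5.95, SE 0.24, adjusted p by edgeR 6.6e-08). The 3 chilled libraries were nearly alike, and the warm libraries spread more. At ZT12 it rose by a log2 change of 4.80 (SE 0.23), and the responses differed by -10.75 (SE 0.33, edgeR adjusted p = 1.05e-08).

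**Figure D2:**
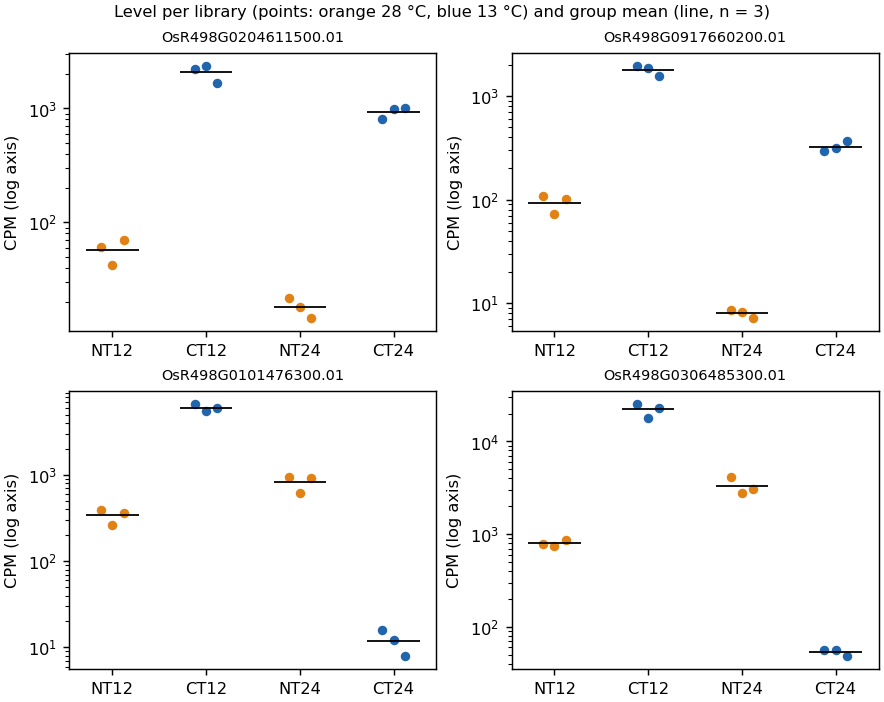
CPM in each of the 12 libraries for the 4 named genes, on log axes, with the group mean as a line (n = 3). Orange points are libraries at 28 °C (NT12, NT24) and blue points libraries at 13 °C (CT12, CT24). The upper genes stand higher under chilling at both hours, and the lower genes stand higher in CT12 but lower in CT24 than in the warm control.

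Including the named genes, 22 of the 1969 highly counted genes rose at least 8-fold and 14 fell at least 8-fold. In all of these the groups did not overlap. Over all genes tested, 1.77% were called at least 8-fold higher and 1.41% at least 8-fold lower, whether or not the groups overlapped. The 22 that rose had group means of 8.06 to 179 CPM in NT24 and 198 to 1628 CPM in CT24. Those that fell went from 227 to 3412 CPM in NT24 down to 6.13 to 217 CPM in CT24.

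The ZT12 libraries, which share no sample with ZT24, set the rises and falls of this group apart. Of the 22 genes that rose, 21 were also called higher in CT12 than in NT12 (95.5%, against 55.7% of the 1969 highly counted genes). The exception stood at 53.9, 25.8 and 34.1 CPM in NT24 and 342, 328 and 379 CPM in CT24. At ZT12 it fell from 528, 530 and 792 CPM to 82.4, 54.2 and 103 CPM, and its responses differed (edgeR adjusted p = 2.71e-06). This gene was singled out after its values were seen. Of the 14 genes that fell before dawn, 1 was called lower at ZT12, 3 were not called and 10 were called higher. The share called lower, 7.14%, was near the 9.19% of all highly counted genes. The share of 71.4% called higher lies above the 55.7% of all highly counted genes, and the sizes differed more. That background grew with count level, from 54.5% between 100 and 1000 CPM to 80.4% over 1000 CPM. Of the 14, 11 lay in the former class and 3 in the latter, and the background was not matched for level. At least 4-fold rises at ZT12 were found for 8 of the 14 (57.1%), against 12.5% of the 1969, while at least 4-fold falls there were found for 0.406% of the 1969 and for 0 of the 14. For 13 of the 14 the response differed between the hours in edgeR's test, and for 43.9% of highly counted genes. That test uses the ZT24 libraries that chose the 14 genes, so nothing is read from the difference between these shares.

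**Figure D3:**
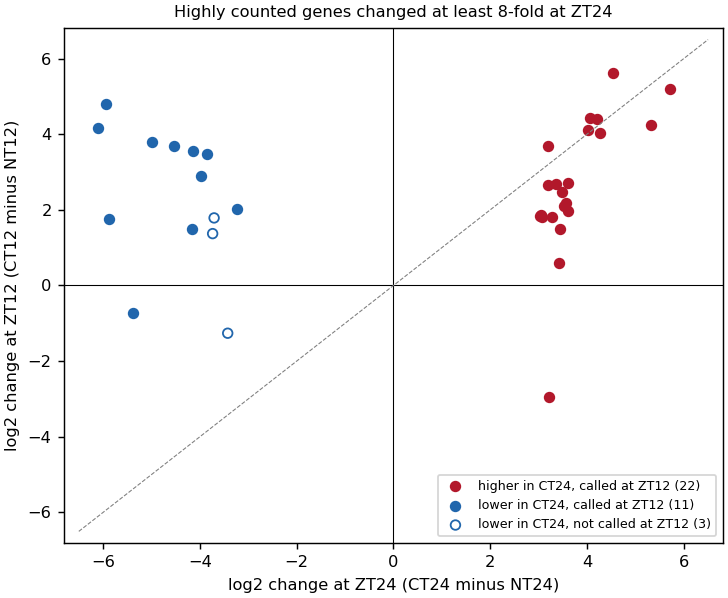
Log2 change at ZT12 against log2 change at ZT24 for the 36 highly counted genes changed at least 8-fold at ZT24; the dashed line marks equal changes. Filled points were called at ZT12 and open points were not. The genes that rose at ZT24 lie above 0 on both axes with 1 exception, and 10 of the 14 that fell at ZT24 were called higher at ZT12.

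With the threshold lowered to 4-fold, 68 of 74 highly counted genes that rose before dawn were called higher at ZT12 (91.9%). Of 43 that fell, 26 were called higher at ZT12 (60.5%), close to the 55.7% of all highly counted genes, and 11 were called lower (25.6%, against 9.19%). Scaling by total counts lowered the share of highly counted genes called higher at ZT12 to 29.2%, with 22 of 41 falls (53.7%) and 62 of 71 rises (87.3%) then called higher there.

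Falls were less regular across replicates in a few highly counted genes. One of the 14 stood at 73.1, 637 and 819 CPM in NT24 and at 60.0, 52.4 and 2.42 CPM in CT24 (edgeR adjusted p = 0.0276). Another moved alike, at 85.5, 508 and 727 CPM against 44.3, 54.5 and 2.59 CPM (edgeR adjusted p = 0.0275). In both, NT24 replicate 1 lay close to the chilled libraries and CT24 replicate 3 far below them. Over all called genes, 78 had an NT24 library at least 4-fold away from its nearest fellow and 77 a CT24 library, 0.75% and 0.741% of the calls.

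Count level went with the chance of a call and, in part, with its direction. The share called rose from 19.9% of 5002 genes averaging under 1 CPM to 42.1% between 1 and 10 CPM, 50.7% between 10 and 100, 55.2% between 100 and 1000 and 66.3% of the 92 genes over 1000 CPM. The median SE of the log2 change was 0.80 in the lowest class and 0.16 between 10 and 100 CPM, so small changes of low genes were not detectable at this depth. Between 10 and 100 CPM, 2837 genes were higher and 2114 lower, and between 100 and 1000 CPM 631 were higher and 405 lower. Both splits depended on the scaling: upper-quartile scaling gave 2367 and 2653 in the former class and 527 and 490 in the latter. Cyclic loess, which removes a trend with level by construction, gave 2526 and 2575, and 508 and 585. In the class from 1 to 10 CPM, 1468 rose and 1885 fell, with 1269 and 2191 under upper-quartile scaling but 1772 and 1648 after cyclic loess.

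**Figure D4:**
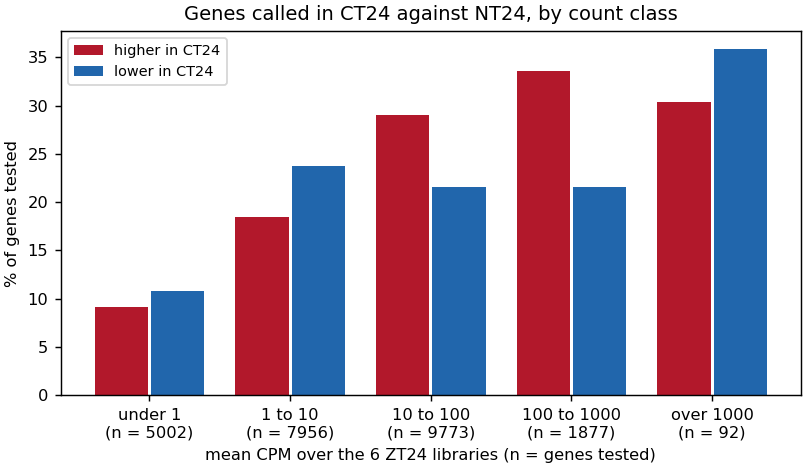
Share of tested genes called higher (red) or lower (blue) in CT24 than in NT24, by mean CPM over the 6 ZT24 libraries. The share of calls rises from the class under 1 CPM to that over 1000 CPM, and rises outnumber falls between 10 and 1000 CPM under TMM scaling, though not between 10 and 100 CPM under upper-quartile scaling nor in either class after cyclic loess.

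The most counted transcripts held a smaller share of the counts in every chilled library. The single most counted gene stood at 42116, 31049 and 31525 CPM in NT24 and at 16625, 19000 and 17620 CPM in CT24 (log2 -0.98, SE 0.23, adjusted p by edgeR 0.00515). Its share of the counts fell from 3.43% ± 0.496 to 1.73% ± 0.104 (SD, n = 3). The 10 most counted genes of each library held 11.2% ± 1.33 of the counts in NT24 and 8.34% ± 0.461 in CT24. For each share all 3 libraries of a group lay on one side of the other 3. The exact permutation p was 0.1, two-sided, the smallest that 3 libraries against 3 allow, and the adjusted p over 7 measures was 0.14. Of the 20 genes with the highest mean, 7 were called lower, 5 higher and 8 not called. Among all 92 genes over 1000 CPM, 35.9% were called lower and 30.4% higher, so nothing is read from these counts. The 100 highest of NT24 and of CT24 had 61 genes in common.

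The number of detected genes overlapped between the groups. At the depth of the smallest ZT24 library, 26249 ± 223 identifiers in NT24 and 26176 ± 235 in CT24 would have at least 1 count (SD, n = 3, exact permutation p = 0.6, adjusted 0.6). With at least 10 counts the numbers were 22913 ± 305 and 22735 ± 288 (exact permutation p = 0.5, adjusted 0.583, n = 3). In terms of counts the called genes mattered more. Those called higher held 19.2% ± 0.270 of the counts in NT24 and 38.6% ± 1.15 in CT24, and those called lower held 35.6% ± 0.465 and 17.1% ± 0.343 (SD, n = 3). The calls were made on the same libraries, so these shares are a description.

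Few genes went from no count to clear counts. In 11 genes no NT24 library had a count and every CT24 library had at least 10, and in 7 genes the reverse held. The 11 reached means of 0.364 to 3.64 CPM in CT24, at least 16.5-fold to at least 163-fold higher, with a floor of 3 counts summed over NT24. The 7 had 0.328 to 1.12 CPM in NT24, at least 16.1-fold to at least 55.4-fold higher than in CT24, whose floor was likewise 3 counts in all. At ZT12, 8 of the 11 were called higher and 0 lower, and 4 of the 7 were called lower and 1 higher. Among all genes averaging under 1 CPM at ZT24, 9.78% were called higher and 15.7% lower at ZT12. Floors cover counting error only.

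Most genes called higher before dawn were also called higher at ZT12 under TMM scaling. Of the 5419, 3239 were called higher at ZT12 (59.8%, against 24.9% of all genes), 298 lower (5.5%, against 20%) and 1882 were not called (34.7%, against 55.1%). Over all genes, 44.9% were called at ZT12 in either direction. The share called higher at ZT12 was 58.7% for rises under 1.5-fold, 55.5% between 1.5-fold and 2-fold, 59.5% between 2-fold and 4-fold, 68.2% between 8-fold and 16-fold and 76.4% beyond 16-fold. Total-count scaling, which shifts the ZT12 changes downward, gave 1605 called higher and 1602 called lower at ZT12 out of 5154. Upper-quartile scaling gave 2327 called higher and 513 called lower there out of 4616.

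Falls before dawn met a mixed response at ZT12 under TMM scaling. Of the 4979 genes called lower, 2430 were called lower at ZT12 (48.8%, against 20% of all genes), 646 higher (13%, against 24.9%) and 1903 not called (38.2%). Total-count scaling gave 3892 lower and 315 higher out of 4973. Upper-quartile scaling gave 3651 lower and 557 higher out of 5964. Whether rises or falls were more often called the same way at ZT12 thus depended on the scaling. Shares over all genes were not computed under these other scalings. By size, the share called lower at ZT12 was 32% for falls under 1.5-fold, 57.2% between 2-fold and 4-fold and 37.4% beyond 16-fold, while 51% of the latter were not called at ZT12. The falls and rises beyond 16-fold were both mostly in low counts, with medians of 0.338 and 0.562 CPM.

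**Figure D5:**
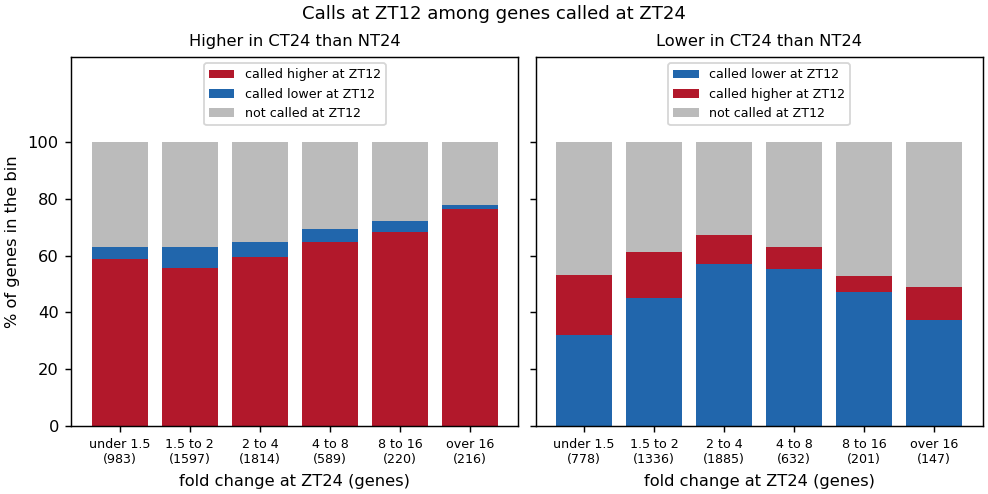
Genes called in CT24 against NT24, split by the size of their change (number of genes in parentheses), with the share called higher (red), called lower (blue) or not called (grey) in CT12 against NT12. The share called higher at ZT12 is largest, at 76.4%, for rises beyond 16-fold. The share called lower at ZT12 falls from 57.2% to 37.4% between falls of 2-fold to 4-fold and falls beyond 16-fold. All calls shown are under TMM scaling.

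A test of the difference itself found that the response differed from that at ZT12 for part of these genes. Of the 5419 genes called higher, 1448 had a more positive and 583 a more negative response at ZT24 (edgeR's interaction test), against 9.24% and 13% of all genes. Of the 4979 called lower, 1428 had a more negative and 108 a more positive response. Because the interaction uses the ZT24 libraries again, some of this lean is set by the choice of genes. Under total-count scaling the numbers were 3353 and 180 for genes called higher, and 724 and 1041 for genes called lower.

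Identifiers numbered like Novel00951 moved down more often than the others. Of 1350 tested, 142 were higher (10.5%) and 397 lower (29.4%) in CT24, against 22.6% and 19.6% of the 23350 OsR498G identifiers. The median log2 change was -0.53 for the numbered set and 0.01 for the others. Their counts were lower, with a median of 1.29 against 9.56 CPM, but falls also prevailed within each count class below 1000 CPM. Between 10 and 100 CPM, 48 were higher and 90 lower of 227, while 2789 and 2024 of 9546 OsR498G genes were. From 1 to 10 CPM falls prevailed in both kinds, at 36.8% lower and 12.3% higher against 22.8% and 18.9% of OsR498G genes. The class from 100 to 1000 CPM held only 22 of the numbered identifiers, 4 higher and 8 lower. Their share of all counts was 1.46%, 1.60% and 1.59% in NT24 and 1.20%, 1.20% and 1.23% in CT24 (exact permutation p = 0.1, adjusted 0.14, n = 3). At ZT12, in other libraries, 162 were higher (12%) and 389 lower (28.8%), against 25.7% and 19.5% of the OsR498G identifiers. The labels and the file do not say what these numbers denote, so the part played by their definition was not tested.

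Consecutive identifiers tended to change together. With the OsR498G identifiers in the order of their digits, the log2 changes of genes 1 place apart had Pearson's r = 0.13 over 23337 pairs, falling to 0.05 at 2 places, 0.02 at 5 places and 0.00 at 10 and at 100 places. Among the 4309 consecutive pairs with both members called, 60.3% moved in the same direction, against 50.3% at 100 places. With both members at 10 CPM or more, r was 0.12 over 5958 pairs. Of the 981 OsR498G genes called at least 4-fold higher, 158 stood in runs of 2 or more consecutive tested identifiers that all rose at least 4-fold. Among falls, 159 of 815 did so. Over all genes tested, 4.15% were called at least 4-fold higher and 3.97% at least 4-fold lower, so some runs arise in any order. The number to be found in a random order was not computed, so nothing is read from these 2 counts. All pairs come from the same libraries, so no test is attached. The files do not say whether the digits follow position in the genome, nor how reads shared by similar or overlapping genes were counted, so the part of shared reads was not tested.

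By the first 2 digits after the G, from 01 to 12, the share of genes called lay between 39.6% and 44%, close to the 42.1% of all genes. The direction varied more. Over all OsR498G identifiers, 22.6% were higher and 19.6% lower. The groups with the largest and the smallest share called higher are given here. Identifiers starting with 01 had 852 higher (25.4%) and 574 lower (17.1%) members of 3354 tested. Those starting with 11 had 226 higher (17.1%) and 297 lower (22.5%) of 1321. Upper-quartile scaling narrowed the former to 728 and 692 and widened the latter to 197 and 345, and neither direction turned under the other scalings run.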

How the data were processed

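The authors deposited 1 table of whole-number counts per gene identifier, with 1 column per library and no normalization. Per the submitters' processing notes, HISAT2 2.0.4 was used. No source used here gives the counter, build, annotation or strand setting. The function filterByExpr, at a minimum count of 10 and a total of 15, kept 24700 genes with 99.98% of the counts. In R 4.3.3, edgeR 4.0.16 applied TMM scaling (trimmed mean of M values) and fitted all 12 libraries in a quasi-likelihood model of 4 group means, without a block (8 residual degrees of freedom). Adjusted p-values are Benjamini-Hochberg over all genes tested, with calls below 0.05; SEs come from the F statistic. Log2 CPM values used a prior count of 2, which was not applied to the fitted log2 changes. The model was tested on simulated counts. DESeq2 1.42.0 and limma 3.58.1 served as alternatives. Replicates are separate biological repeats per the labels; chi-square per gene between them was at least 25.5, far above sampling noise. The named genes were the 2 largest rises and 2 largest falls among called genes with at least 100 CPM on average over the ZT24 libraries and no overlap between groups. Depths are given with the results. The comparison, lists and rules were chosen with earlier results of these data known. Detection at a common depth was computed as an expectation.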

Additional observations from a re-analysis of the deposited data

Results flagged for a closer look

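In 3 of the 4 named genes the response to chilling at ZT24 differed from that at ZT12 by the test of the difference itself, edgeR's interaction term. OsR498G0917660200.01 rose more on the log2 scale at ZT24, by 1.07. OsR498G0101476300.01 fell at ZT24 and rose at ZT12, a difference of -10.26 log2 units. OsR498G0306485300.01 did likewise, with a difference of -10.75. In each of these falls all 3 CT24 libraries lay below, and all 3 CT12 libraries above, every library of the warm control of the same hour. Groups of 3 libraries are too small to look for single outlying values.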

How the results depend on the processing

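Of 338 alternative values, 334 were rated the same as the value reported, by a rule that differed with the kind of value. Counts and correlations had to stay within 1.5 times of it. Changes of the named genes had to keep their direction and their side of the threshold. Whole-library differences had to lie within 1 SD, pooled over NT24 and CT24. All changes of the named genes kept their direction. The uncalled difference in genes with at least 1 count (CT24 minus NT24) ran from -199 to 60.5 without single libraries. It was rated the same although its sign turned. Genes called before dawn numbered 4568 to 6065 higher and 3950 to 5964 lower over 16 alternatives. A test against a 2-fold change in place of a 2-fold estimate left 1340 higher and 1022 lower genes, of 2839 and 2865. Total-count scaling moved the interaction from 2283 more positive and 3203 more negative genes to 9279 and 1312, and upper-quartile scaling turned it to 3283 and 2446. A replicate block in the model gave 4980 higher and 4381 lower genes. Same-numbered NT24 and CT24 libraries deviated together with r = 0.09, 0.18 and -0.17, and 1 of 3 NT24 libraries correlated best with its own number. So few libraries cannot settle whether the numbers pair the samples. Without 1 ZT24 library, 4568 to 4757 genes were higher and 3950 to 4584 lower. Highly counted genes at least 4-fold lower at ZT24 and higher at ZT12 numbered 19 to 28 over 21 alternatives. They came from sets of 30 to 58 highly counted genes at least 4-fold lower. Under TMM scaling 60.5% of the set were higher at ZT12, against 55.7% of all highly counted genes. Cyclic loess gave 46.6% against 33.3%, and total-count scaling 53.7% against 29.2%. How far the falls exceeded that background thus depended on the scaling. The count of 19 to 28 and the highly counted group were chosen after seeing the data. The named changes stayed called in all 16 alternatives. Depth limits small changes under 1 CPM.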
